A study of Mus musculus with 25 samples.

Results

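Testes of Mlh3-/- mice were compared with testes of Cul4a-/- mice, both labelled B6;129, by summing the transcripts of every barcode of a library. Of 25 libraries of the series 18 were read here, and the comparison used 6 of them. These were the libraries of these strains that were made by mechanical dissociation and sequenced on a HiSeq. They were Mlh3_3, Mlh3_4, Mlh3_5 and Mlh3_6 (4 libraries) and Cul4a_1 and Cul4a_2 (2 libraries). The other Mlh3 libraries, Mlh3_1 and Mlh3_2, were sequenced on a MiSeq and entered only an alternative. They came from males aged 3 months 22 days and 8 months 30 days, and the latter is also the age of the male of Mlh3_3. The sources do not say whether these were the same animal. The series profiled single-cell suspensions of mouse testis by Drop-seq, which tags the 3′ ends of the transcripts of single cells on beads in droplets, so that a barcode stands for a cell and a unique molecular identifier (UMI) for a captured molecule. By the labels, Mlh3_3 came from a male aged 8 months 30 days, Mlh3_4, Mlh3_5 and Mlh3_6 from males aged 2 months and 21, 22 and 23 days, and Cul4a_1 and Cul4a_2 from males aged 1 month and 18 and 21 days. The sample list of the study gives other ages for the Cul4a males. The Mlh3 males were homozygous for the B6.129-Mlh3tm1Lpkn/J allele and were bred from heterozygotes, and the study writes that line as B6.129 whereas the labels write B6;129. Neither the labels nor the study restrict either disruption to a cell type, so somatic cells of the testis carried it too. No wild-type library on this background was analyzed here, and 8 wild-type libraries of C57BL/6 testis, also mechanical and HiSeq, were used to set levels beside those of the mutants. With 2 libraries of C57BL/6 males of the genotype CNP eGFP BAC TRAP, aged 2 months and 14 and 16 days, they also entered an alternative fit of all mechanical HiSeq libraries. By the labels these wild-type males were aged 3 months 1 day to 9 months 14 days, all older than the Cul4a males.

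MLH3 is a MutL homolog that acts on pachytene chromosomes, where it helps to turn recombination intermediates into crossovers. Spermatocytes that lack it enter meiotic prophase but do not complete the first division, and few or no haploid spermatids are formed. CUL4A is the scaffold of a CRL4 ubiquitin ligase, which joins the adaptor DDB1 and the RING protein RBX1, and the X-linked paralog CUL4B builds the same kind of ligase. The comparison asks how testes with these 2 disruptions differ in the transcripts of germ cells and of somatic cells.

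The Mlh3 libraries held 799 to 4261 barcodes and 2172238 to 6340116 UMIs, and the Cul4a libraries held 2767 and 2969 barcodes and 9691555 and 9745302 UMIs. Across genes, log2(CPM + 1) correlated between Mlh3_4, Mlh3_5 and Mlh3_6 with a Pearson r of 0.983 to 0.984, between Mlh3_3 and these with 0.938 to 0.954, between the Cul4a libraries with 0.992, and between strains with 0.689 to 0.787, where CPM is the UMI count of a gene divided by the UMI total of its library and put on the usual common scale. Genes are not independent replicates, and these correlations are a description. Mlh3_3 stood apart from the other Mlh3 libraries, and its values come first wherever values are listed by library. The median barcode had 13.5% to 20.6% mitochondrially encoded UMIs in Mlh3 and 0.567% and 0.838% in Cul4a. Any pair of the 6 libraries shared 2 to 12 barcode sequences. The strains also differed in age and in depth without overlap. Genotype and age cannot be told apart. The main fit kept the unequal depths, which an alternative fit made equal by thinning. In these sums, fewer cells of a type and less RNA per cell cannot be told apart either. The sources do not state that every library came from a different animal, and p-values measure only the spread between these libraries.

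The disrupted genes were read first. Values are listed below in the order Mlh3_3, Mlh3_4, Mlh3_5, Mlh3_6 and then Cul4a_1, Cul4a_2, and a positive log2 fold change is higher in Mlh3. Mlh3 was counted at 26.2, 61.9, 54.2 and 40.9 CPM in the Mlh3 libraries and at 52.1 and 38.8 CPM in the Cul4a libraries (log2 fold change -0.62, SE 0.32, adjusted p = 0.135 in edgeR's quasi-likelihood test, p adjusted by Benjamini-Hochberg). Cul4a was at 114, 155, 115 and 109 CPM in Mlh3 and 54.5 and 49.0 CPM in Cul4a (log2 fold change 0.61, SE 0.25, adjusted p = 0.0613 in the same test), and the strains did not overlap. The wild-type libraries held 26.7 to 45.7 CPM of Cul4a, so both strains lay above the wild-type range. Scaled to library totals instead, Cul4a passed the threshold (log2 fold change 1.25, adjusted p = 0.00293 in edgeR's test) and Mlh3 had a log2 fold change of 0.01. Both genes were therefore still counted in the strains labelled as their knockouts. Drop-seq tags come from the 3′ end, which can lie outside the deleted part, and these levels do not check the labels. Cul4b was at 52.9, 13.9, 18.6 and 9.78 CPM in Mlh3 and 40.2 and 47.5 CPM in Cul4a. Its libraries overlapped because Mlh3_3 was above both Cul4a libraries, and its call (adjusted p = 0.0197 in edgeR's test) was lost when scaled to library totals (adjusted p = 0.211).

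The testes differed across a large part of the transcriptome. Of 21944 genes tested, 3116 (14.2%) were called higher in Mlh3 and 6364 (29.0%) higher in Cul4a by edgeR's quasi-likelihood test with TMM normalization (adjusted p under 0.05), and 2668 (12.2%) and 5892 (26.9%) of them had an absolute log2 fold change of at least 1. The split of the calls rested on the scaling. TMM put 32.9% of the calls on the Mlh3 side, and library totals alone put 58.7% there, with 6334 genes (28.9%) higher in Mlh3 and 4459 (20.3%) higher in Cul4a. Library totals moved the median log2 fold change of all genes by 0.619, from -0.21 to 0.41. Calls depend on the scaling also at folds beyond that shift. Cul4b, at a log2 fold change of -1.59 with TMM, was not called with library totals. No gene was called in opposite directions by both scalings, and 2880 genes (13.1%) higher in Mlh3 and 4063 (18.5%) higher in Cul4a were called the same way by TMM, library totals and DESeq2. After every library was thinned to 2172238 UMIs, 7173 of 19187 genes were called, 2463 higher in Mlh3 and 4710 higher in Cul4a. Without Mlh3_3, 4643 (21.5%) of 21642 genes were higher in Mlh3 and 7027 (32.5%) higher in Cul4a. In barcodes of at most 10% mitochondrial UMIs, 2848 of 21150 were higher in Mlh3 and 6907 higher in Cul4a. Counts of list members under an alternative stand against the shares of that alternative. With Cul4a_1 left out 505 genes (2.41%) were higher in Mlh3, and with Cul4a_2 left out 548 (2.62%). Calls higher in Cul4a numbered 4125 (19.7%) and 3814 (18.2%) in those fits, and 315 genes (1.44%) higher in Mlh3 and 3592 (16.4%) higher in Cul4a kept their call whichever library was left out.

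**Figure D1:**
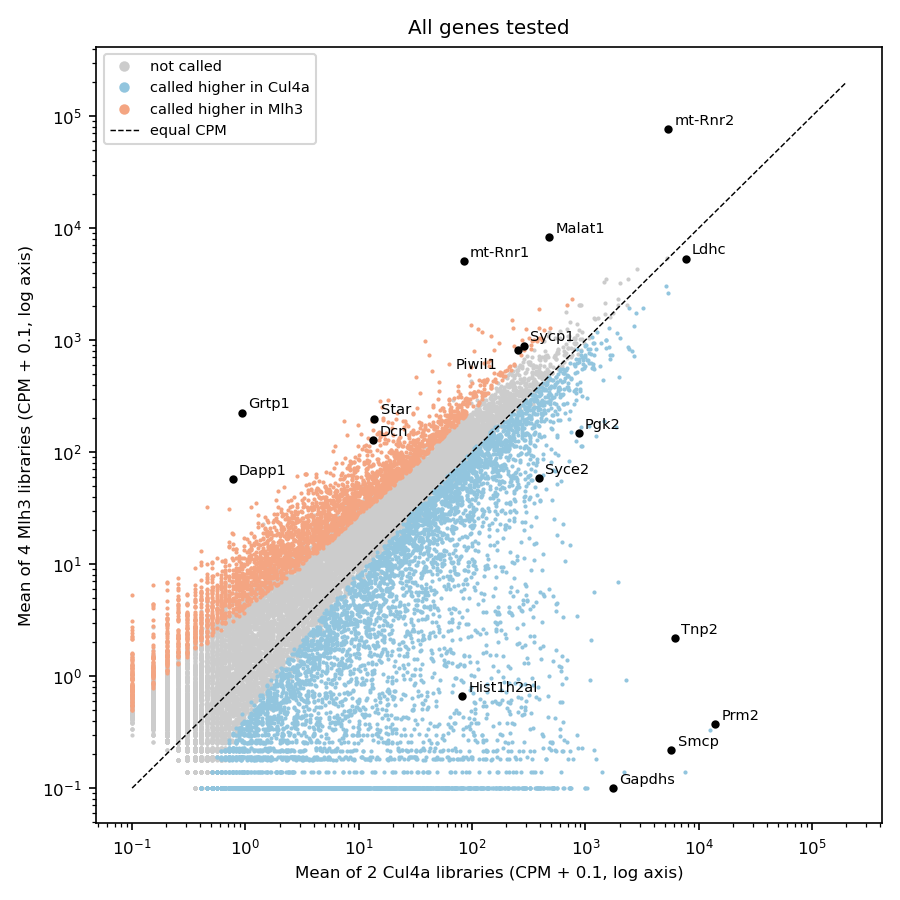
Each point is 1 of the 21944 genes tested, plotted as the mean CPM + 0.1 of the 2 Cul4a libraries (x axis, log scale) against that of the 4 Mlh3 libraries (y axis, log scale), colored by the edgeR call with TMM scaling, with the line of equal CPM dashed. Spermatid genes such as Prm2, Smcp and Gapdhs lie along the lower edge, Grtp1 and Dapp1 stand alone at the upper left, and the calls are not symmetrical about the dashed line because TMM shifts the scale.

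The largest differences were in genes of the haploid phase. Sperm chromatin proteins, which replace the histones in elongating spermatids, were led by the protamines Prm1 and Prm2. Prm2 was counted at 0.460, 0, 0.641 and 0 CPM in Mlh3 and 13485 and 14336 CPM in Cul4a, beside 8558 to 13289 CPM in the wild-type libraries. That is 3 UMIs over the 4 Mlh3 libraries against 270405 over the 2 Cul4a libraries, a Cul4a to Mlh3 ratio of 66976 (95% counting interval 22918 to 324775). The ratio was 89893 (95% counting interval 24885 to 742284) for Prm1, on 2 Mlh3 UMIs, both in Mlh3_3. For the transition protein Tnp1, with 1 UMI in Mlh3, it was 108489 (95% counting interval 19471 to 4285130.3). Tnp2 kept more UMIs in Mlh3, at 1.84, 0.711, 3.53 and 2.21 CPM against 6038 and 6340.1 CPM (log2 fold change -12.12, SE 0.44, adjusted p = 5.44e-10 in edgeR's quasi-likelihood test). Such intervals cover counting error only. Of the 8 members 7 were called higher in Cul4a and 0 higher in Mlh3, beside 29.0% and 14.2% of all genes tested, with a median log2 fold change of -14.91 (-13.55 with Prm3, at 0 UMIs in Mlh3, set to its bound against 3 counts over the Mlh3 libraries), beside -0.21 for all genes tested. The linker histone H1fx, which is not restricted to spermatids, was the other member, at 25.8, 72.2, 55.1 and 48.1 CPM in Mlh3 and 60.9 and 52.0 CPM in Cul4a (adjusted p = 0.0705 in edgeR's test). It passed without Mlh3_3.

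Flagellum genes divided into those near 0 in Mlh3 and those that Mlh3 libraries still held. Of 27 members 24 were called higher in Cul4a and 0 higher in Mlh3 (29.0% and 14.2% of all genes), and the median log2 fold change was -10.14 (-8.65 with zero-count genes at their bounds). The sperm glycolytic enzyme Gapdhs had 0 UMIs in all 4 Mlh3 libraries and 1702 and 1815 CPM in Cul4a, at least 8468-fold higher in Cul4a when 3 counts are allowed over the Mlh3 libraries. Ropn1, a fibrous sheath protein, also had 0 UMIs in Mlh3 and was at least 4747-fold higher in Cul4a. Akap4, the main structural protein of the fibrous sheath, was at 536 and 682 CPM in Cul4a, with 1 UMI in Mlh3, and Odf1 of the outer dense fibers was at 307 and 305 CPM in Cul4a, also with 1 UMI in Mlh3. Smcp, a mitochondrial capsule protein of the midpiece, had 2 UMIs in Mlh3 against 111165 in Cul4a. In contrast, Odf2, which also serves the centrosome, was at 528, 987, 908 and 1061 CPM in Mlh3 and 2213 and 2561 CPM in Cul4a. Tekt1, a tektin of the axoneme, was at 179, 278, 284 and 366 CPM and 519.6 and 543 CPM. Both genes, chosen for mention with their values known, were called higher in Cul4a (log2 fold change -2.09 and -1.57), with far more RNA left in Mlh3 than the sheath genes. The radial spoke gene Rsph1, the axonemal gene Spag16 and the channel gene Catsper2 were not called. Scaled to library totals, the list gave 1 member higher in Mlh3 and 23 higher in Cul4a.

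Acrosome and egg interaction genes followed a similar division. Of 18 members 17 were called higher in Cul4a and 0 higher in Mlh3, against 29.0% and 14.2% of all genes tested (median log2 fold change -10.79, or -8.91 with the 7 zero-count members at their bounds). Spaca3, an acrosomal membrane protein, had 0 UMIs in Mlh3 and 351 and 393 CPM in Cul4a, at least 1792-fold higher. Lyzl1, a lysozyme-like protein, was at least 1394-fold higher. Acrv1, an acrosomal vesicle protein, had 2 UMIs in Mlh3 and 10437 in Cul4a, a Cul4a to Mlh3 ratio of 3878 (95% counting interval 1073 to 32023). The protease Acr and its binding partner Acrbp, chosen in the same way, were still present in Mlh3. Acr stood at 82.9, 115, 131 and 147 CPM in Mlh3 and 212 and 222 CPM in Cul4a (log2 fold change -1.50, SE 0.26). Zpbp2, a zona pellucida binding protein, was the uncalled member, with 325, 455, 415 and 626 CPM in Mlh3 and 452 and 441 CPM in Cul4a. For the acrosome and sperm chromatin lists the called members were unchanged in number without Cul4a_1 and without Cul4a_2, and for the flagellum list 23 were called in either fit.

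The promoter of Hils1, a spermatid-specific linker histone and one of the 10 genes of smallest adjusted p on the Cul4a side, is shown as an example of this group. It is the RefSeq window of 300 bases (250 before and 50 after the start) at chr11:94967343-94967642, plus strand, build GRCm38.p6, printed 5′ to 3′ on the strand of the gene, with capitals for GTTGCC, which lies within the longer RFX palindrome.
Hils1: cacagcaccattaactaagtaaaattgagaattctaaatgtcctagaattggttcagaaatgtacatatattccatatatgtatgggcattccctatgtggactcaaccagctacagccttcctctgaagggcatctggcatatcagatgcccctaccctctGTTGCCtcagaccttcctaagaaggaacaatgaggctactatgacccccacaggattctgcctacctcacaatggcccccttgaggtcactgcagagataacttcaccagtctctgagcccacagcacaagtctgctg
Hils1 was at 1295 and 1502 CPM in Cul4a and had 1 UMI in Mlh3. GTTGCC was held on either strand by 1 of 6 sperm chromatin genes with a window, 6 of 23 flagellum genes and 2 of 16 acrosome genes, beside 15.4% of the genes tested that had a window and 12.5% of all 32851 windows in the table. The complete RFX palindrome was in 0.0183% of all windows and in none of the flagellum, acrosome, piRNA or synaptonemal complex windows. A match is a description of the letters only. Windows were found for 14030 of the 21944 genes tested, which is under 80%, so the comparison of motif shares between genes called in either direction is void.

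Over whole libraries, sperm chromatin protein transcripts made up 0.00335, 0.00805, 0.00645 and 0.00541% of nuclear-encoded UMIs in Mlh3 and 4.28 and 4.38% in Cul4a, beside 2.17 to 3.54% in the wild-type libraries. Cul4a thus lay above the wild-type range for this list. The flagellum list took 0.547, 0.802, 0.819 and 0.967% in Mlh3 and 2.42 and 2.61% in Cul4a, inside the wild-type range of 2.34 to 2.86%. The acrosome list took 0.0807, 0.115, 0.115 and 0.151% in Mlh3 and 0.479 and 0.549% in Cul4a, beside 0.549 to 0.689% in wild-type. In every one of these shares the strains did not overlap. The exact permutation test of 4 against 2 libraries has 15 splits, so its smallest two-sided p is 0.133, which each of them reached, and the design cannot reach 0.05. After each barcode of at least 200 UMIs was thinned to 200, at least 1 UMI of a sperm chromatin gene was found in 0.629, 1.02, 0.989 and 0.759% of barcodes in Mlh3 and 84.2 and 87.4% in Cul4a. Unthinned, these shares were 7.55%, 8.11%, 4.39% and 5.602% in Mlh3 and 99.8% and 99.7% in Cul4a. Cell types were not assigned here, and RNA free in the droplets adds to such shares, so in Cul4a they do not count spermatids. The list includes H1fx, which is not restricted to spermatids. In Mlh3 most UMIs of the list were of H1fx, so the Mlh3 shares do not count spermatids either.

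**Figure D2:**
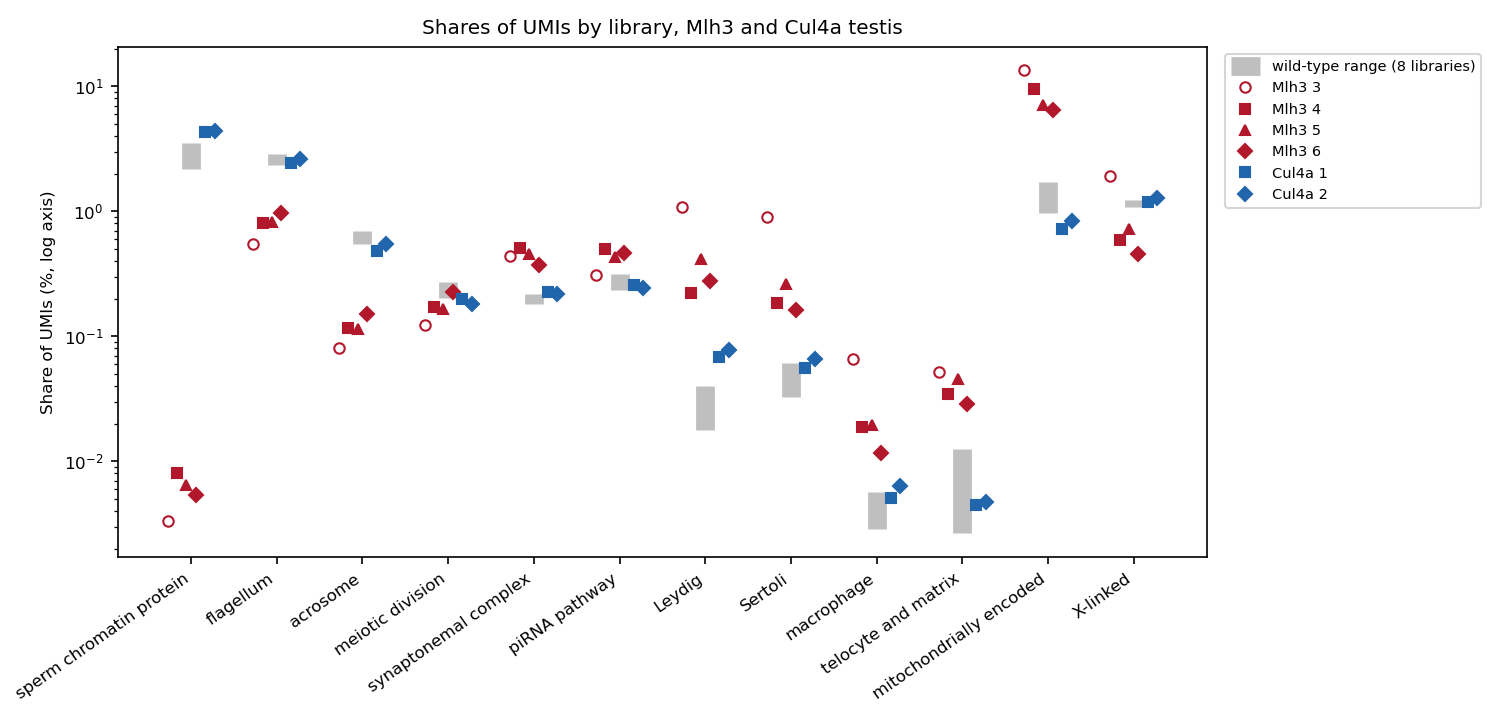
Points give the share of UMIs (%, log axis) that each list takes in each of the 6 libraries, with Mlh3 in red, Mlh3_3 open, Cul4a in blue, and gray bars for the range of the 8 wild-type libraries. X-linked UMIs are a percent of autosomal UMIs, the mitochondrial share is of all UMIs and the other shares are of nuclear-encoded UMIs. Sperm chromatin genes separate the strains most, while Mlh3_3 stands above the other Mlh3 libraries for Leydig, Sertoli and macrophage genes.

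The synaptonemal complex, the protein ladder that joins homologous chromosomes, had 4 of 9 members called higher in Mlh3 and 2 higher in Cul4a, beside 14.2% and 29.0% of all genes tested. The members higher in Mlh3 were Sycp1, Sycp2, Sycp3 and 4930447C04Rik. Sycp1, the transverse filament, was at 871, 1007, 1064 and 620.3 CPM in Mlh3 and 299 and 274 CPM in Cul4a (log2 fold change 0.99, SE 0.27, adjusted p = 0.0113 in edgeR's quasi-likelihood test). Sycp2 of the lateral element was at 1064, 1682, 1365 and 1058 CPM and 415 and 361 CPM (log2 fold change 1.10, SE 0.28, adjusted p = 0.00812 in that test), and every Mlh3 library lay above both Cul4a libraries. Sycp3, also of the lateral element, was at 995, 847, 744 and 715 CPM and 358 and 306 CPM (adjusted p = 0.0439 in that test). 4930447C04Rik, the gene of the central element protein SIX6OS1, was at 139, 134, 108 and 84.1 CPM and 35.9 and 31.2 CPM (log2 fold change 1.14, SE 0.27). The members higher in Cul4a were the central element genes Syce2 and Syce3. Syce2 was at 60.8, 53.4, 61.9 and 59.0 CPM in Mlh3 and 365 and 414 CPM in Cul4a (log2 fold change -3.37, SE 0.22, adjusted p = 6.60e-08 in edgeR's test), and Syce3 at 70.4, 86.8, 108 and 77.8 CPM and 219 and 196 CPM (log2 fold change -1.92, SE 0.23, adjusted p = 2.36e-05). Wild-type libraries held 254 to 409.7 CPM of Syce2 and 327 to 428 CPM of Sycp2, so for both genes the Mlh3 libraries lay outside the wild-type range. Syce3 differed, at 68.0 to 149.6 CPM in wild-type. Its Mlh3 libraries lay inside that range and both Cul4a libraries above it. The list had a median log2 fold change of 0.26, which was -0.02 without Mlh3_3, and its share of nuclear-encoded UMIs was 0.438, 0.507, 0.456 and 0.371% in Mlh3 and 0.226 and 0.217% in Cul4a (two-sided exact permutation p = 0.133). Without Cul4a_1 or without Cul4a_2, 0 members were called higher in Mlh3, and Syce2 and Syce3 stayed called. With all 6 Mlh3 libraries 1 member was higher in Mlh3.

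**Figure D3:**
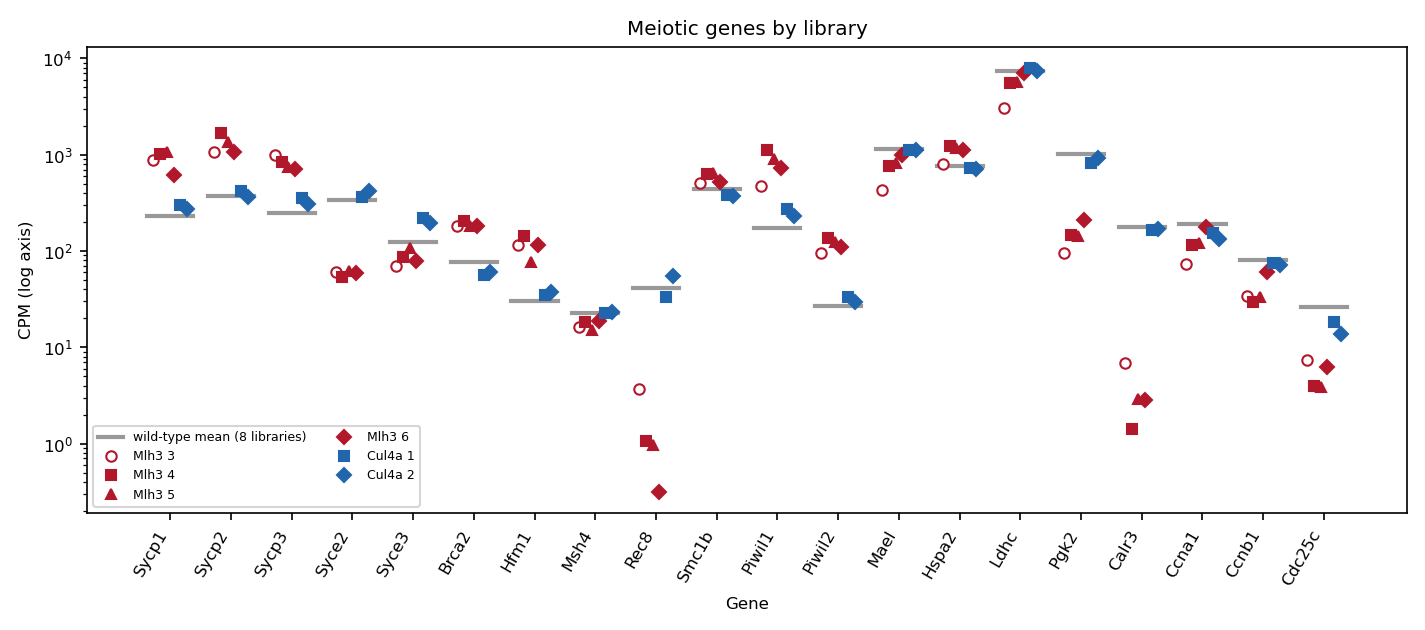
CPM (log axis) of 20 meiotic genes in each of the 6 libraries, Mlh3 in red with Mlh3_3 open and Cul4a in blue, with gray lines for the mean of the 8 wild-type libraries. Sycp1, Sycp2, Brca2, Piwil1 and Piwil2 are higher in every Mlh3 library, and Syce2, Syce3, Rec8, Pgk2, Calr3 and Cdc25c are higher in both Cul4a libraries.

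Genes that make and repair meiotic breaks had 3 of 18 members higher in Mlh3 and 2 higher in Cul4a, beside 14.2% and 29.0% of all genes tested, with a median log2 fold change of 0.25. Brca2, which loads the recombinases onto single-stranded DNA, was at 180.5, 205, 181 and 182 CPM in Mlh3 and 55.9 and 59.7 CPM in Cul4a (log2 fold change 1.05, SE 0.23, adjusted p = 0.00341 in edgeR's quasi-likelihood test). Hfm1, a helicase needed for crossovers, was at 116, 143, 77.3 and 115 CPM and 35.2 and 37.5 CPM (log2 fold change 0.99, SE 0.29). The Hfm1 call was lost without Cul4a_1 or without Cul4a_2 and that of Brca2 without Cul4a_1. The list gave 7 and 1 with library totals, 6 and 3 without Mlh3_3, 0 and 1 without Cul4a_1 and 1 and 0 without Cul4a_2. Spo11, which cuts the DNA, and the meiotic recombinase Dmc1 were not called. Among 14 mismatch repair and crossover genes, 2 were called in each direction, beside 14.2% and 29.0% of all genes tested. Without Mlh3_3 the list gave 5 higher in Mlh3 and 3 higher in Cul4a, and without Cul4a_1 or without Cul4a_2 it gave none. Over all genes the shares were 21.5% and 32.5% without Mlh3_3 and 28.9% and 20.3% with library totals. The exonuclease Exo1 was higher in Mlh3, at 18.9, 16.0, 9.94 and 11.7 CPM, against 3.61 and 3.18 CPM in Cul4a. Msh4, of the MutS dimer that stabilizes crossover intermediates, was at 16.1, 18.1, 15.1 and 18.6 CPM in Mlh3 and 22.9 and 23.3 CPM in Cul4a (log2 fold change -1.08), and the nuclease gene Mus81 had a log2 fold change of -1.16. These 2 calls were lost with library totals (adjusted p = 0.15 and 0.136 in edgeR's test), where 7 members were higher in Mlh3 and 0 higher in Cul4a.

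Rec8, the meiotic kleisin that holds sister chromatids together until the divisions, was the called cohesin of 5, where 43.2% of all genes tested were called. Its libraries read 3.68, 1.07, 0.962 and 0.315 CPM in Mlh3 and 33.5 and 54.4 CPM in Cul4a, beside 32.1 to 50.5 CPM in wild-type (log2 fold change -5.78, SE 0.54, adjusted p = 2.25e-06 in edgeR's quasi-likelihood test). Mlh3_3 held the most Rec8 of the Mlh3 libraries and Mlh3_6 the least, and all lay far below Cul4a. The call was kept with library totals (log2 fold change -5.12) and whichever library was left out. Smc1b, Stag3, Smc3 and Rad21l were not called, and Smc1b was at 504, 631, 652 and 516 CPM in Mlh3 and 376 and 375 CPM in Cul4a.

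The piRNA pathway, which silences transposons and in pachytene processes long precursor transcripts, had 7 of 16 members called higher in Mlh3 and 1 higher in Cul4a (14.2% and 29.0% of all genes tested), with a median log2 fold change of 0.45. Piwil1, the pachytene Argonaute, was at 474, 1114, 911 and 733 CPM in Mlh3 and 274 and 233 CPM in Cul4a (log2 fold change 1.04, SE 0.33, adjusted p = 0.024 in edgeR's quasi-likelihood test), and Mlh3_3 was the lowest of the Mlh3 libraries. Piwil2 was at 95.8, 136, 123 and 110.3 CPM and 32.9 and 29.2 CPM (log2 fold change 1.27, SE 0.26, adjusted p = 0.00172) and kept its call whichever library was left out. Mybl1, the transcription factor A-MYB that drives pachytene piRNA precursors, was at 186, 230.1, 174 and 225 CPM in Mlh3 and 71.2 and 62.4 CPM in Cul4a (log2 fold change 0.98, SE 0.25). Mael, which acts in transposon silencing and precursor export, was the member higher in Cul4a, at 433, 765, 809 and 997 CPM in Mlh3 and 1125 and 1123 CPM in Cul4a. Its call was lost with library totals (adjusted p = 0.141 in edgeR's test), under which 13 members were higher in Mlh3 and 0 higher in Cul4a. In 13 of the 16 genes the Mlh3 libraries lay above both Cul4a libraries in CPM, beside 36.6% of all genes tested. Of all genes, 28.9% were called higher in Mlh3 with library totals and 21.5% without Mlh3_3. Without Mlh3_3, 14 members were higher in Mlh3, whereas 1 was without Cul4a_1 or without Cul4a_2 and 1 with all 6 Mlh3 libraries.

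Windows of 4 meiotic genes are printed because A-MYB was itself called and its sites are known in the promoters of such genes. Each printed window holds a match, whereas the window of Sycp3, also called higher in Mlh3, held none and is not printed. Capitals mark CNGTTA, the A-MYB letters (N is any base), read on either strand, and in Syce2 also TGACG, which lies within the CRE palindrome TGACGTCA. Piwil1 is at chr5:128735996-128736295, plus strand. Sycp1 is at chr3:102936051-102936350, minus strand, and Sycp2 at chr2:178407609-178407908, minus strand. The window of Syce2, the first of its 2 windows in the table, is at chr8:84871861-84872160, plus strand. All are RefSeq windows of build GRCm38.p6, printed 5′ to 3′ on the strand of the gene.
Piwil1: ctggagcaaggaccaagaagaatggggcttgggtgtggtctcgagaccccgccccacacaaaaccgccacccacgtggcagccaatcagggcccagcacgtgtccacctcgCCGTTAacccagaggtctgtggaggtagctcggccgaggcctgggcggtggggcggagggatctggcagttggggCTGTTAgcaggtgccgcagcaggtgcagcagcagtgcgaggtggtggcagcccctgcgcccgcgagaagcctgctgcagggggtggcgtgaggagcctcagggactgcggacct
Sycp1: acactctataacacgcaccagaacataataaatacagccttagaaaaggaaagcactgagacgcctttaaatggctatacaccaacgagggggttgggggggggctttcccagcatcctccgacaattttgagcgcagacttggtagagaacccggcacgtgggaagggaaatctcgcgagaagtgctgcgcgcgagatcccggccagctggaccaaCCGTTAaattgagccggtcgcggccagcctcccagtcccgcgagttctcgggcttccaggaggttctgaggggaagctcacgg
Sycp2: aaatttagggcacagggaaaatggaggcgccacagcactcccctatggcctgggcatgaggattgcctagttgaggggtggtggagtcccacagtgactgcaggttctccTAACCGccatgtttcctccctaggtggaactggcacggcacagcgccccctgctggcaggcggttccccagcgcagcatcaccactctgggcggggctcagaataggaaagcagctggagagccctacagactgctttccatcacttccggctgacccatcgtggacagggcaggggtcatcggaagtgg
Syce2: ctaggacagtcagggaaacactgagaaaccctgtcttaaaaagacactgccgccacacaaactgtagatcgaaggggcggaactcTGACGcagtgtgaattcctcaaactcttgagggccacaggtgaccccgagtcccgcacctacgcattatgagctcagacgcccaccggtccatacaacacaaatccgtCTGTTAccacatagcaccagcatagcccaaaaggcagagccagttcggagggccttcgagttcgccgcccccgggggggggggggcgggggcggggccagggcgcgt
Piwil1 held the letters 139 and 64 bases before its start, Sycp1 33 bases before and Sycp2 140 bases before. Syce2, which moved the other way, held them 57 bases before its start. They were present in 6 of 8 synaptonemal complex genes with a window, 6 of 13 piRNA genes, 9 of 23 flagellum genes and 6 of 16 acrosome genes, beside 23.6% of the genes tested that had a window and 23.3% of all 32851 windows.

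Genes switched on in pachytene spermatocytes for metabolism and protein folding had 8 of 14 members called higher in Cul4a and 0 higher in Mlh3, beside 29.0% and 14.2% of all genes tested (median log2 fold change -1.16). Without Cul4a_1, and likewise without Cul4a_2, 4 were higher in Cul4a. Calr3, a testis calreticulin, was at 6.91, 1.42, 2.89 and 2.84 CPM in Mlh3 and 164 and 169.7 CPM in Cul4a (log2 fold change -6.28, SE 0.38, adjusted p = 2.75e-08 in edgeR's quasi-likelihood test). Pgk2, the autosomal phosphoglycerate kinase of spermatogenic cells, was at 95.8, 146, 143 and 208 CPM and 815 and 929 CPM (log2 fold change -3.19, SE 0.30, adjusted p = 2.49e-06). Both were called whichever library was left out. Ldhc, the lactate dehydrogenase of spermatocytes, was at 3038, 5508, 5674 and 7098 CPM in Mlh3 and 7891 and 7418 CPM in Cul4a, and Mlh3_6 was close to Cul4a while Mlh3_3 was lowest. The Ldhc call (log2 fold change -1.15, adjusted p = 0.0183 in edgeR's test) was lost with library totals (log2 fold change -0.52, adjusted p = 0.213). The heat shock gene Hspa2, the chaperone gene Clgn and Pdha2 of the pyruvate dehydrogenase complex were among the 6 members that did not pass. Hspa2 was at 807, 1235, 1162 and 1116 CPM in Mlh3 and 723 and 713 CPM in Cul4a. With library totals 4 members were higher in Cul4a and 0 higher in Mlh3.

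The Ldhc window, the first of its 2 in the table, is printed because it holds several matches. It lies at chr7:46861013-46861312, plus strand (RefSeq, GRCm38.p6), and capitals mark 2 copies of TGACG and 3 of CNGTTA on either strand, of which the first CNGTTA starts 6 bases before the second.
Ldhc: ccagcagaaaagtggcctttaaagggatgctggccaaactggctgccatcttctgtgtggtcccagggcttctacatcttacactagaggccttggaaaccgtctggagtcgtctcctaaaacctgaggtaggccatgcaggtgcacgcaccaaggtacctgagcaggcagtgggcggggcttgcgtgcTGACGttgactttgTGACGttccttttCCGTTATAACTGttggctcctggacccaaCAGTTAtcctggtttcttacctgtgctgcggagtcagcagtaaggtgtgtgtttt
The CNGTTA matches began 34, 28 and 5 bases before the start and the TGACG matches 61 and 47 bases before. TGACG was present in 30.9% of the genes tested that had a window and in 20.8% of all windows in the table, and the whole palindrome TGACGTCA in 3.12% and 1.79%.

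Regulators of the meiotic divisions had 10 of 16 members called higher in Cul4a and 0 higher in Mlh3, beside 29.0% and 14.2% of all genes tested. Without Cul4a_1, and likewise without Cul4a_2, 3 were higher in Cul4a. Library totals gave 2 higher in Mlh3 and 3 higher in Cul4a and moved the median log2 fold change from -0.87 to -0.24. In CPM, 5 members had both Cul4a libraries above every Mlh3 library, beside 27.1% of all genes tested. Cdc25c, a phosphatase that activates CDK1, was at 7.37, 3.91, 3.85 and 6.31 CPM in Mlh3 and 18.3 and 13.9 CPM in Cul4a (log2 fold change -2.20, SE 0.36, adjusted p = 3.47e-04 in edgeR's quasi-likelihood test). Rgcc, a regulator of cell cycle kinases, was at 38.7, 31.3, 27.9 and 48.4 CPM and 86.4 and 77.0 CPM (log2 fold change -1.78, SE 0.27). Both calls held with library totals and whichever library was left out. Ccna1, the meiotic A-type cyclin, was at 73.7, 116, 121 and 176 CPM in Mlh3 and 153 and 133 CPM in Cul4a, so its libraries overlapped, and its call (adjusted p = 0.0421 in edgeR's test) was lost with library totals (adjusted p = 0.565).

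Spermatogonial genes gave 4 of 18 members called higher in each strain, beside 14.2% of all genes tested for Mlh3 and 29.0% for Cul4a. They gave 6 higher in Mlh3 and 3 higher in Cul4a with library totals, and 0 and 1 without Cul4a_1 and also without Cul4a_2. Kit, the receptor of differentiating spermatogonia, was at 70.0, 23.1, 18.6 and 14.8 CPM in Mlh3 and 5.06 and 4.41 CPM in Cul4a, with Mlh3_3 far above the others (log2 fold change 2.05, SE 0.57, adjusted p = 0.0124 in edgeR's quasi-likelihood test). Ccnd2, a D-type cyclin, was at 31.3, 7.47, 14.1 and 6.62 CPM and 1.96 and 2.77 CPM. Kit and Ccnd2 are also expressed outside spermatogonia. Esx1, an X-linked homeobox gene, was at 3.68, 0.356, 1.92 and 0.946 CPM in Mlh3 and 11.2 and 11.2 CPM in Cul4a and kept its call whichever library was left out. In barcodes of at most 10% mitochondrial UMIs, 0 members were higher in Mlh3 and 5 higher in Cul4a, beside 2848 and 6907 of all 21150 genes tested in them. Mki67, a marker of proliferating cells and one of the 10 genes of smallest adjusted p on the Mlh3 side, was at 88.4, 94.3, 75.0 and 79.2 CPM and 12.4 and 10.98 CPM (log2 fold change 2.21, SE 0.27, adjusted p = 2.79e-05), with the Mlh3 libraries within a narrow range.

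X-linked genes are silenced as the sex body in pachytene and are partly expressed again in spermatids. Of 1031 X-linked genes tested, 212 (20.6%) were called higher in Mlh3 and 352 (34.1%) higher in Cul4a, beside 14.3% and 27.7% of autosomal genes. Of 48 Y-linked genes 2 were higher in Mlh3 and 39 (81.2%) higher in Cul4a. With library totals 265 X-linked genes (25.7%) were higher in Mlh3 and 296 (28.7%) higher in Cul4a, beside 29.8% and 18.8% of autosomal genes, so the X-linked share on the Mlh3 side was above the autosomal share with TMM and below it with library totals. On the Y the counts were then 2 and 36. Summed, X-linked UMIs were 1.92, 0.590, 0.724 and 0.453% of autosomal UMIs in Mlh3 and 1.19 and 1.29% in Cul4a, beside 1.08 to 1.22% in wild-type. Mlh3_3 lay above both Cul4a libraries and the other Mlh3 libraries below them, so the strains overlapped (two-sided exact permutation p = 0.667). The difference of the means was -0.315 percentage points, -0.647 without Mlh3_3, -0.205 without Mlh3_4, -0.159 without Mlh3_6, -0.130 with all 6 Mlh3 libraries and -0.738 in barcodes of at most 10% mitochondrial UMIs.

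Most markers of Sertoli cells, Leydig cells, macrophages and stroma were higher in Mlh3. Of 19 Sertoli cell genes tested 14 were called higher in Mlh3 and 0 higher in Cul4a, beside 14.2% and 29.0% of all genes tested, with a median log2 fold change of 1.77. Sox9, the factor that sets Sertoli identity, was at 81.5, 13.5, 21.8 and 7.41 CPM in Mlh3 and 2.17 and 1.74 CPM in Cul4a (log2 fold change 3.28, SE 0.84, adjusted p = 0.00772 in edgeR's quasi-likelihood test). Wt1 was at 64.4, 23.8, 25.0 and 19.1 CPM and 1.65 and 3.28 CPM (log2 fold change 3.05, SE 0.56, adjusted p = 8.47e-04) and was the member called whichever library was left out. Clu, a secreted chaperone, was at 2634, 507, 789 and 450.1 CPM and 132 and 160.1 CPM, and Aard, an alanine-rich protein of Sertoli cells, at 489.8, 163, 233 and 131 CPM and 46.2 and 43.7 CPM. For each of these genes Mlh3_3 was the highest library and the Cul4a libraries were the lowest. The list took 0.898, 0.184, 0.261 and 0.162% of nuclear-encoded UMIs in Mlh3 and 0.0552 and 0.0657% in Cul4a (two-sided exact permutation p = 0.133), and the difference of the means was 0.316 percentage points, or 0.142 without Mlh3_3. Of all genes, 21.5% were called higher in Mlh3 without Mlh3_3, and 2848 of 21150 in barcodes of at most 10% mitochondrial UMIs. Without Mlh3_3 16 members were higher in Mlh3, but without Cul4a_1 or Cul4a_2 the number was 2 in each fit, and in barcodes of at most 10% mitochondrial UMIs it was 7, with a median log2 fold change of 0.84 and a difference in the share of 0.127 percentage points.

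Of 12 Leydig cell genes 11 were higher in Mlh3 and 0 higher in Cul4a, against 14.2% and 29.0% of all genes tested (median log2 fold change 2.17). Star, which brings cholesterol into mitochondria for steroid synthesis, was at 513, 99.9, 144 and 37.4 CPM in Mlh3 and 11.7 and 15.6 CPM in Cul4a (log2 fold change 3.17, SE 0.81, adjusted p = 0.00767 in edgeR's quasi-likelihood test). Cyp17a1, an enzyme of androgen synthesis, was at 1660.5, 457, 679.7 and 435 CPM and 135 and 175 CPM, beside 15.4 to 68.4 CPM in wild-type, and the hormone gene Insl3 at 1171, 261, 991 and 758 CPM and 77.0 and 131 CPM, beside 7.24 to 40.3 CPM. For both genes the Cul4a libraries were also above the wild-type range. Hsd3b1, a steroid dehydrogenase, was at 535, 29.9, 73.1 and 106 CPM in Mlh3 and 17.0 and 19.2 CPM in Cul4a, and Mlh3_3 supplied most of its mean. Fdx1, an electron carrier found in other cells too, was the uncalled member. The list took 1.08, 0.222, 0.412 and 0.274% of nuclear-encoded UMIs in Mlh3 and 0.0678 and 0.0776% in Cul4a, and the difference of 0.424 percentage points was 0.230 without Mlh3_3 and 0.229 in barcodes of at most 10% mitochondrial UMIs, where the median log2 fold change was 1.48. Without Cul4a_1 1 member was called and without Cul4a_2 4 were.

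Telocyte and matrix genes were the somatic list with the firmest calls, 13 of 13 higher in Mlh3 (14.2% of all genes), with a median log2 fold change of 2.502 and 9 members called whichever library was left out, beside 1.44% of all genes tested. Col1a2, a chain of type I collagen, was at 36.4, 35.9, 50.3 and 21.9 CPM in Mlh3 and 2.17 and 2.36 CPM in Cul4a (log2 fold change 3.33, SE 0.41, adjusted p = 2.86e-05 in edgeR's quasi-likelihood test). Pdgfra, a receptor of interstitial stromal cells, was at 23.5, 12.8, 16.4 and 14.2 CPM and 1.75 and 1.33 CPM (log2 fold change 2.77, SE 0.42, adjusted p = 1.97e-04). Adamts5, a matrix protease among the leading genes on the Mlh3 side, was at 44.2, 25.6, 45.8 and 23.5 CPM and 1.03 and 1.23 CPM (log2 fold change 4.26, SE 0.45, adjusted p = 7.29e-06). Mlh3_5 was the highest library for Col1a2 and Adamts5, and Mlh3_3 for Pdgfra. Peritubular myoid and smooth muscle genes gave 1 of 8 higher in Mlh3, Cnn3 at 52.0, 5.34, 10.3 and 4.73 CPM and 1.44 and 1.44 CPM, with Mlh3_3 far above the rest. The 2 higher in Cul4a were Cnn1 and Actg2 (2 higher in Mlh3 and 1 in Cul4a with library totals, 0 and 1 without Cul4a_1 or without Cul4a_2), and these counts stand beside 14.2% and 29.0% of all genes tested. Actg2, a smooth muscle actin, was at 2.30, 0.711, 0.321 and 0 CPM in Mlh3 and 226 and 277 CPM in Cul4a, beside 236 to 354 CPM in wild-type testis. The smooth muscle list as a whole had a median log2 fold change of 1.09, or -0.11 without Mlh3_3, and 5 of its members were not called.

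Of 13 macrophage genes 8 were higher in Mlh3 and 0 higher in Cul4a, beside 14.2% and 29.0% of all genes tested (median log2 fold change 1.86). Mrc1, the mannose receptor, was at 127, 30.6, 28.2 and 18.6 CPM in Mlh3 and 2.58 and 4.10 CPM in Cul4a (log2 fold change 3.23, SE 0.73, adjusted p = 0.00364 in edgeR's quasi-likelihood test), and the lysozyme Lyz2 at 218, 43.7, 46.5 and 24.6 CPM and 5.78 and 10.8 CPM. Csf1r, the receptor that macrophages need for survival, was at 20.3, 3.91, 9.94 and 2.21 CPM and 1.24 and 1.74 CPM and was not called (adjusted p = 0.0616 in edgeR's test), although it passed with library totals (adjusted p = 0.0415). The list took 0.0656, 0.0188, 0.0195 and 0.0116% of nuclear-encoded UMIs in Mlh3 and 0.00506 and 0.00633% in Cul4a. The difference of 0.0232 percentage points was 0.0109 without Mlh3_3. Without Cul4a_1 0 members and without Cul4a_2 2 members were higher in Mlh3. In barcodes of at most 10% mitochondrial UMIs 3 were higher in Mlh3 and 1 higher in Cul4a, the median log2 fold change was 0.95 and the difference in the share was 0.0100 percentage points. Of all 21150 genes tested in those barcodes, 2848 were higher in Mlh3 and 6907 higher in Cul4a. Of 9 T cell genes 2 were higher in Cul4a, beside 29.0% of all genes, and the count was 3 of 8 without Mlh3_3, 4 of 9 with all 6 Mlh3 libraries and 4 of 8 in barcodes of at most 10% mitochondrial UMIs. The 2 genes were Cd3d at 3.68, 3.91, 8.98 and 4.10 CPM in Mlh3 and 44.8 and 36.0 CPM in Cul4a and Trbc2 at 0.921, 0.356, 0.962 and 0.158 and 7.12 and 7.49 CPM. The other CD3 chains, Cd3e and Cd3g, were at 0 to 1.58 CPM in the 6 libraries and were not called. Endothelial genes gave 1 of 6 higher in Mlh3 and 3 higher in Cul4a (14.2% and 29.0% of all genes). The counts were 1 and 1 with library totals, 0 and 0 without Cul4a_1 and 0 and 1 without Cul4a_2, and the median log2 fold change was -1.76.

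Hemoglobin transcripts, which mark red blood cells, separated the Mlh3 libraries from each other. Hbb-bs was at 29.5, 21.7, 341 and 188 CPM in Mlh3 and 8.67 and 12.2 CPM in Cul4a, with Mlh3_5 highest and Mlh3_6 next, beside 4.18 to 59.3 CPM in wild-type. Hba-a1 followed with 4.14, 6.40, 106 and 33.0 CPM and 1.14 and 2.36 CPM. Hba-a1 and Hba-a2, and Hbb-bs and Hbb-bt, are near-identical pairs, and the share of reads within a pair is uncertain. These 4 globins were the called members of 7, beside 14.2% of all genes called higher in Mlh3 (log2 fold change 3.15 to 4.97), while Alas2 of heme synthesis was at 7.83, 1.78, 3.21 and 2.37 CPM in Mlh3 and 2.68 and 2.26 CPM in Cul4a. The list took 0.00606, 0.00409, 0.0657 and 0.0318% of nuclear-encoded UMIs in Mlh3 and 0.00141 and 0.00191% in Cul4a, and the difference of 0.0253 percentage points was 0.0123 without Mlh3_5. Without Cul4a_1 or without Cul4a_2, 0 of these genes were called.

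Mitochondrially encoded transcripts were 13.4, 9.47, 7.04 and 6.41% of all UMIs in Mlh3 and 0.720 and 0.830% in Cul4a, beside 0.963 to 1.72% in wild-type. Cul4a thus lay below the wild-type range and Mlh3 above it (two-sided exact permutation p = 0.133 between the mutants). Most of this was ribosomal RNA. The large rRNA mt-Rnr2 was at 115844, 79709, 56699 and 53533 CPM in Mlh3 and 4729 and 6039 CPM in Cul4a, beside 8210.3 to 15452 CPM in wild-type. The small rRNA mt-Rnr1 was at 6207, 8133, 2415 and 3638 CPM and 81.6 and 86.6 CPM (log2 fold change 5.28, SE 0.55, adjusted p = 6.50e-06 in edgeR's quasi-likelihood test), beside 48.7 to 107 CPM. Among messenger RNAs, mt-Co1, a subunit of cytochrome oxidase, was at 1011, 644, 1103 and 996 CPM in Mlh3 and 161 and 185 CPM in Cul4a (log2 fold change 1.79, SE 0.30, adjusted p = 3.72e-04 in that test), and mt-Nd6, the gene on the light strand, at 194, 175, 269 and 64.7 CPM and 11.8 and 7.70 CPM (log2 fold change 3.52, beside 3.17 for mt-Rnr2). Of 26 mitochondrial genes tested 16 were higher in Mlh3 and 0 higher in Cul4a, beside 14.2% and 29.0% of all genes, and 7 were called whichever library was left out, beside 1.44% of all genes. Only 16.6% to 31.6% of Mlh3 barcodes, against 98.7% and 99.4% of Cul4a barcodes, had at least 200 UMIs and 50 genes and at most 10% mitochondrial UMIs. In those barcodes the difference in the mitochondrial share was 2.15 percentage points, against 8.32 in all barcodes. Of 21150 genes tested in them 9755 were called, 2848 higher in Mlh3 and 6907 higher in Cul4a. In these barcodes 17 of 18 acrosome members and 24 of 27 flagellum members were called higher in Cul4a. Of the telocyte and matrix list, 12 of 13 were called higher in Mlh3. The nuclear long RNA Malat1 was also higher in Mlh3, at 10035, 6641, 9203 and 7421 CPM against 395 and 564 CPM (log2 fold change 3.46, SE 0.37, adjusted p = 7.57e-06 in edgeR's test), beside 521 to 882 CPM in wild-type.

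**Figure D4:**
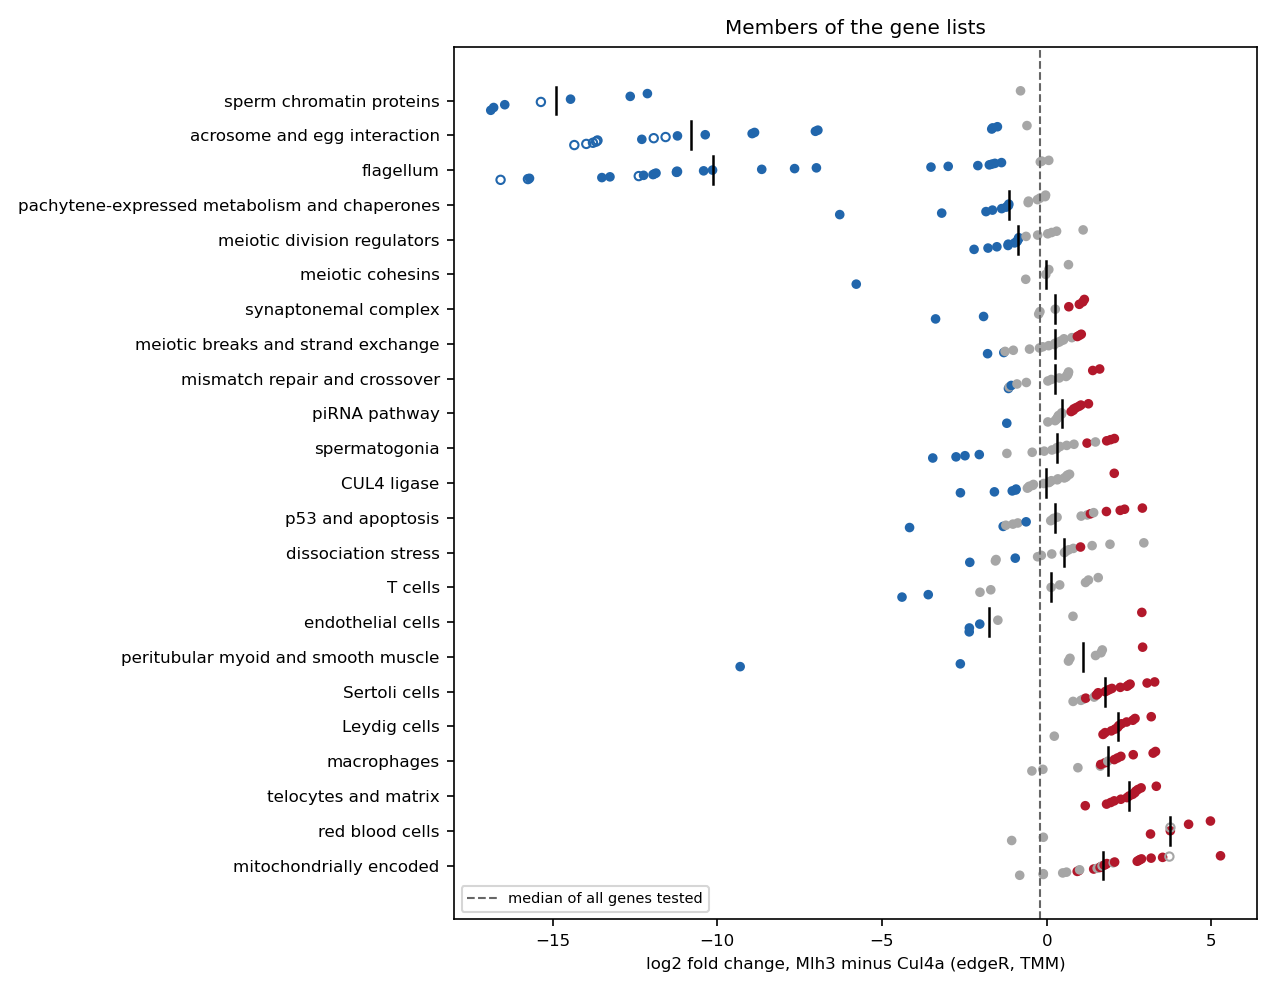
Each point is a list member at its fitted log2 fold change (x axis, Mlh3 minus Cul4a), red or blue where called higher in Mlh3 or Cul4a by edgeR and gray where not called, with open circles for genes at 0 UMIs in one strain, whose fitted value depends on the prior count. Black bars are list medians and the dashed line is the median of all 21944 genes (-0.21). The sperm chromatin, acrosome and flagellum lists reach below -10, and the Sertoli, Leydig, macrophage, and telocyte and matrix lists have medians between 1.77 and 2.502.

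Subunits and adaptors of the CUL4 ligase had 1 of 22 members higher in Mlh3 and 5 higher in Cul4a (median log2 fold change -0.01), beside 14.2% and 29.0% of all genes tested. Library totals gave 10 and 1, leaving out Mlh3_3 gave 5 and 6, leaving out Cul4a_1 gave 0 and 1 and leaving out Cul4a_2 gave 1 and 1. Over all genes the shares were 28.9% and 20.3% with library totals and 21.5% and 32.5% without Mlh3_3. Dda1, a DDB1-associated subunit, was at 45.6, 56.6, 54.8 and 59.9 CPM in Mlh3 and 195 and 233 CPM in Cul4a, beside 136 to 165 CPM in wild-type (log2 fold change -2.62, SE 0.23, adjusted p = 1.37e-06 in edgeR's quasi-likelihood test). Its call held with library totals and whichever library was left out. Dcaf4, a substrate receptor, was at 38.7, 14.6, 16.7 and 11.5 CPM and 2.48 and 3.59 CPM (log2 fold change 2.05, SE 0.51, adjusted p = 0.00647). It is the member higher in Mlh3 and lies at -1.71 Mb from Mlh3 on chromosome 12, within the flank described below. Ddb1, the adaptor, was at 120.2, 171, 158 and 151 CPM and 78.5 and 74.1 CPM and the RING subunit Rbx1 at 192, 175, 218 and 178 CPM and 108 and 87.9 CPM, and neither passed. Genes of the p53 and apoptosis pathways had 5 of 18 members higher in Mlh3 and 3 higher in Cul4a, beside the same 14.2% and 29.0% of all genes. The counts were 9 and 1 with library totals, 1 and 1 without Cul4a_1 and 0 and 1 without Cul4a_2. Atr, the kinase that signals unsynapsed chromosomes in meiosis, was at 234, 397, 293 and 305 CPM in Mlh3 and 86.5 and 71.3 CPM in Cul4a (log2 fold change 1.33, SE 0.28, adjusted p = 0.00218 in edgeR's test). Ccng1, a p53 target, was at 70.9, 11.03, 11.9 and 8.36 CPM and 3.41 and 2.67 CPM, with Mlh3_3 far above the other Mlh3 libraries. Bcl2l11, the gene of the death-promoting protein BIM, was at 11.05, 2.13, 1.60 and 1.73 CPM in Mlh3 and 41.4 and 43.3 CPM in Cul4a (log2 fold change -4.16, SE 0.56), and the Cul4a libraries lay within the wild-type range of 21.3 to 55.8 CPM.

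Some genes set Cul4a apart from both Mlh3 and wild-type. A difference of at least 10-fold, chosen after the values were seen, in which Cul4a stood on one side and Mlh3 and wild-type on the other, was found for 9 genes. Grtp1, a growth hormone regulated gene with a TBC domain, was nearly lost from Cul4a. It was at 119, 232, 244 and 304 CPM in Mlh3, 139 to 192 CPM in wild-type and 0.722 and 0.924 CPM in Cul4a (log2 fold change 7.43, SE 0.54, adjusted p = 1.67e-07 in edgeR's quasi-likelihood test). Dapp1, an adaptor of phosphoinositide signaling, was the other gene lower in Cul4a, at 34.1, 55.5, 65.1 and 74.1 CPM in Mlh3, 32.9 to 50.8 CPM in wild-type and 0.929 and 0.410 CPM in Cul4a (log2 fold change 5.76, SE 0.51, adjusted p = 1.33e-06 in that test). Of the 7 genes higher in Cul4a, Hist1h2al, named for histone H2A and annotated by GENCODE as a processed pseudogene, was at 0, 0.356, 1.28 and 0.631 CPM in Mlh3 and 93.1 and 70.2 CPM in Cul4a, beside 0 to 1.55 CPM in wild-type. Csmd1, a transmembrane protein with complement control domains, was at 0.460, 0.356, 0.321 and 0.158 CPM and 20.9 and 20.2 CPM, and the peroxidase Lpo had 1 UMI in Mlh3 and was at 12.4 and 13.3 CPM in Cul4a and at 0 in the wild-type libraries. D630024D03Rik, Gm15485, Gm16212 and Rps13-ps1 were the remaining ones. Hist1h2al and Rps13-ps1, as pseudogenes, can share reads with near-identical copies, and their values are uncertain. Mlh3 stood apart in the same way for 2 genes above, Nckap5 and mt-Rnr1, and for 891 genes below. Nckap5, which binds microtubules, was at 27.6, 15.3, 17.3 and 13.7 CPM in Mlh3, 0 to 1.31 CPM in wild-type and 0.825 and 0.513 CPM in Cul4a.

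The study had chosen 6 genes on these samples as markers of a Cul4a component, namely Hist1h2al, Csmd1, Jakmip2, Tagln2, Map2k7 and Lpo. Of these, 5 were higher in Cul4a and 0 higher in Mlh3 (5 and 1 with library totals), beside 29.0% and 14.2% of all genes tested, which is not independent evidence of a direction. Tagln2, an actin-binding protein, was at 5.06, 1.42, 5.77 and 2.68 CPM in Mlh3 and 33.8 and 35.4 CPM in Cul4a, beside 0 to 3.16 CPM in wild-type, and Jakmip2 at 8.29, 10.3, 9.30 and 15.9 CPM and 98.7 and 98.6 CPM. Map2k7, a kinase of the JNK cascade, was at 80.1, 61.9, 71.2 and 74.0 CPM in Mlh3 and 41.7 and 36.6 CPM in Cul4a and was not called. Of 14 amyloid-related genes that the study chose on these samples, 8 were higher in Mlh3 and 0 higher in Cul4a, beside 14.2% and 29.0% of all genes (median log2 fold change 1.47), again not independent evidence. Lrp1, a lipoprotein receptor, was at 26.7, 19.6, 15.1 and 9.94 CPM in Mlh3 and 2.27 and 2.46 CPM in Cul4a (log2 fold change 2.23, SE 0.45, adjusted p = 0.00171 in edgeR's quasi-likelihood test) and was the member called whichever library was left out. Apoe was at 809.8, 197, 357 and 188 CPM and 87.2 and 105 CPM. The amyloid precursor App was at 264, 60.8, 68.6 and 58.2 CPM and 76.7 and 71.9 CPM, where only Mlh3_3 exceeded Cul4a, and it was not called. In barcodes of at most 10% mitochondrial UMIs the list had 2 members higher in each strain, and without Cul4a_1 or without Cul4a_2 it had 1 higher in Mlh3. Clu also stands in the Sertoli list.

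Both strains carry 129 background by their labels, so the flanks of the disrupted genes were described. Within 10 Mb of Cul4a, 163 genes were tested, of which 13 were higher in Mlh3 and 61 higher in Cul4a (45.4% called). Within 10 Mb of Mlh3, 164 were tested, of which 16 were higher in Mlh3 and 57 higher in Cul4a (44.5%), beside 43.2% of all genes tested. By direction, 7.98% of the genes near Cul4a and 9.76% of those near Mlh3 were higher in Mlh3, beside 14.2% of all genes, and 37.4% and 34.8% were higher in Cul4a, beside 29.0%. The median log2 fold change was -0.54 near Cul4a and -0.23 near Mlh3, beside -0.21 for all genes tested. No test of these shares was made. Near Cul4a the called genes included Defb33 (2 UMIs in Mlh3, 172 and 160.1 CPM in Cul4a) and 1700029H14Rik (0 UMIs in Mlh3, at least 3517-fold higher in Cul4a), and near Mlh3 they included Zfyve1 (5.52, 5.69, 3.53 and 3.94 CPM in Mlh3, 107 and 142 CPM in Cul4a) and Fam71d (0 UMIs in Mlh3, at least 1333-fold higher in Cul4a). Of the genes that set Cul4a apart, Csmd1 lies 2.79 Mb from Cul4a, and Grtp1 is closer, with Lamp1 between it and Cul4a. Rps13-ps1 is on chromosome 8 too, 73.9 Mb away. By the GENCODE annotation of GRCm38 Grtp1 spans chr8:13172022-13200620 on the minus strand, and its lower end is 66.4 kb above the lower end of Cul4a (chr8:13105621-13147940, plus strand). It overlaps the 3′ end of Lamp1 (chr8:13159161-13175338, plus strand) by 3317 bases on the opposite strand. Lamp1, a lysosomal membrane protein, was at 493, 475, 504 and 587 CPM in Mlh3 and 416 and 374 CPM in Cul4a and was not called (adjusted p = 0.404 in edgeR's quasi-likelihood test). The deposited tables do not state whether strand was used in counting, so reads in the shared bases cannot be assigned with certainty. On the other side, Pcid2 was at 34.1, 51.2, 50.3 and 67.7 CPM in Mlh3 and 28.6 and 22.2 CPM in Cul4a and was not called. Near Mlh3, Acyp1 was at 274, 673, 665 and 655 CPM in Mlh3 and 728 and 633 CPM in Cul4a, and Prox2 at 2.76, 2.49, 3.85 and 5.20 CPM and 28.6 and 32.8 CPM. The wild-type means were 560 CPM for Acyp1 and 36.8 CPM for Prox2, so for Prox2 the Mlh3 libraries were the ones away from wild-type.

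**Figure D5:**
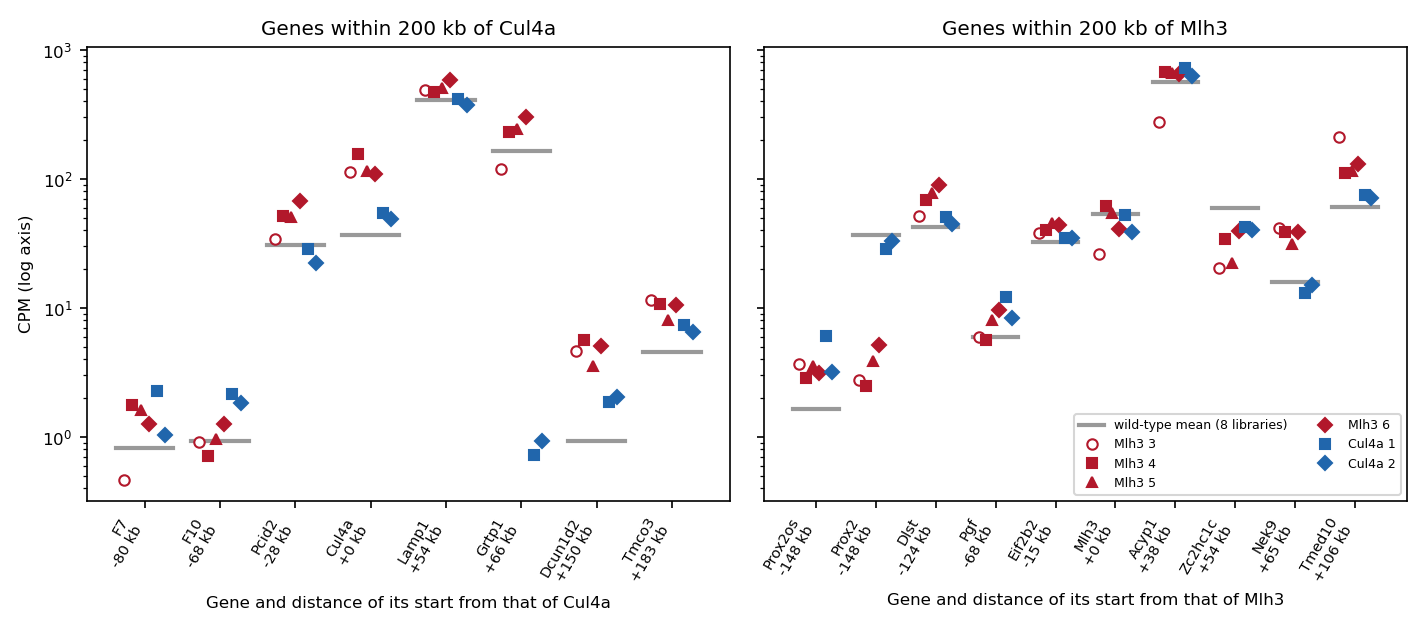
CPM (log axis) of the genes tested within 200 kb of Cul4a (left) and of Mlh3 (right) in each of the 6 libraries, with Mlh3 in red, Mlh3_3 open, Cul4a in blue and gray lines for the wild-type mean. Distances between the lower ends of the genes are in kb. Grtp1, 66.4 kb from Cul4a, is below 1 CPM in both Cul4a libraries and at least 119 CPM in every Mlh3 library, while its neighbor Lamp1 is at 374 to 587 CPM in all 6.

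Wild-type levels placed the differences. Among the 2668 genes higher in Mlh3 by at least 1 on the log2 scale, the wild-type mean was nearer to Cul4a for 2641 (99.0%). Among the 5892 genes higher in Cul4a it was nearer to Cul4a for 4615 (78.3%) and nearer to Mlh3 for 1277. Nearness was measured on log2 of the mean CPM + 1, which is scaled to library totals, whereas the calls used TMM. Genes with a small difference in CPM can be placed by that shift of scale. These wild-type mice were of another strain, and no test was made. Of the genes tested, 1750 had 0 UMIs in the 4 Mlh3 libraries, of which 106 had at least 100 CPM in Cul4a, and 209 had 0 UMIs in the 2 Cul4a libraries, the highest of them at 67 UMIs in Mlh3. At an equal depth of 2172238 UMIs, 18258, 18081, 18437 and 17490 genes were detected in the Mlh3 libraries and 19316 and 19388 in the Cul4a libraries (two-sided exact permutation p = 0.133).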

How the data were processed

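The authors deposited, for each library, raw UMI counts by gene and barcode, with no normalization. Per the labels and the methods of the study, reads were processed with the Drop-seq pipeline, bcl2fastq and STAR 2.5.3a on mm10 (GRCm38). UMIs of every barcode were summed per library. Genes with at least 5 counts over the 6 libraries were fitted with edgeR 4.0.16 (glmQLFit and glmQLFTest, TMM, R 4.3.3), with 4 Mlh3 and 2 Cul4a libraries, no covariate, and Benjamini-Hochberg adjustment at 0.05. DESeq2 1.42.0, library totals only, no mitochondrial genes, thinning to 2172238 UMIs, filterByExpr, no filter, all mechanical HiSeq whole-testis libraries in 1 fit, all 6 Mlh3 libraries, barcodes of at least 200 UMIs and 50 genes, the same at no more than 10% mitochondrial UMIs, and each replicate left out were the alternatives. Shares were compared by two-sided exact permutation (Python 3.11.15, scipy 1.17.1). TMM factors were 1.10 to 1.20 for Mlh3 and 0.715 to 0.773 for Cul4a, and the common biological coefficient of variation was 0.308. The fitting step was tested on simulated data with 200 changed genes. At a log2 fold change of 1, edgeR recovered 3 of them (1.5%) with 0 false calls. At a log2 fold change of 2 it recovered 108 (54%) with 2 false calls. These runs changed 200 of 21202 and 21184 genes, a far smaller share than the 43.2% called in the data. The adjustment is stricter when few genes change, so the recovered shares do not give the power of the comparison itself. A gene that did not pass is not shown to be alike. Genes with 0 UMIs in a strain are given as bounds against 3 counts over the group, and genes with 1 to 3 UMIs as ratios with 95% counting intervals.

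Symbols were matched to GENCODE vM21 (GRCm38), directly for 26245 symbols and by older names for 868. Promoter windows are RefSeq's. Named genes were the disrupted genes, a set of fixed names, up to 2 per direction and list by fold, the 10 per direction of smallest adjusted p and up to 5 near each locus. Genes outside this rule, chosen after their values were seen, were uncalled list members and the genes apart from both, Lamp1, Pcid2, Acyp1, Prox2, Tekt1, Odf2, Acr, Acrbp, Mybl1, Cnn1 and Trbc2. The members and lists were chosen with earlier results of these data known. Values of some list members are not reported here. The authors' single-cell components were not recomputed. The deposited barcodes are 11 bases long and doublets were not called.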

Additional observations from a re-analysis of the deposited data

Results flagged for a closer look

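The 4 Mlh3 libraries were screened for 1 library whose distance to the nearest other exceeded Dixon's 95% critical share of the group's range. Of 103 groups of values, 18 were marked, of which 15 pointed to Mlh3_3. Chance marks about 1 in 20 groups when they are independent and normally distributed. These groups overlap, and many of their genes were chosen by their difference between the strains. The 18 of 103 can therefore not be set against that rate.

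Mlh3_3, from the oldest male of the 4, was marked for somatic and signaling genes. Its share of Sertoli genes was 0.898% (others 0.162 to 0.261%) and its share of macrophage genes 0.0656% (others 0.0116 to 0.0195%). Among genes of the Sertoli and spermatogonia lists it had Clu at 2634 CPM (others 450.1 to 789), Wt1 at 64.4 CPM (others 19.1 to 25.0) and Kit at 70.0 CPM (others 14.8 to 23.1). In the interstitium, Hsd3b1 was at 535 CPM (others 29.9 to 106), Mrc1 at 127 CPM (others 18.6 to 30.6), Lyz2 at 218 CPM (others 24.6 to 46.5) and Cnn3 at 52.0 CPM (others 4.73 to 10.3). Of the damage response genes, Ccng1 was at 70.9 CPM (others 8.36 to 11.9) and Bcl2l11 at 11.05 CPM (others 1.60 to 2.13). Of the amyloid-related genes, App was at 264 CPM (others 58.2 to 68.6), Itm2b at 706 CPM (others 330.1 to 362), Psen2 at 27.6 CPM (others 8.20 to 10.9) and Fyn at 73.2 CPM (others 17.7 to 24.2). Mlh3_3 also differed from the others in age, barcode number and mitochondrial share, and the part of these in its values was not tested.

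Mlh3_4 was marked for Cul4a at 155 CPM (others 109 to 115) and for Brca2 at 205 CPM (others 180.5 to 182), where the range was narrow. Mlh3_5 was marked for Cd3d at 8.98 CPM (others 3.68 to 4.10).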

How the results depend on the processing

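No paired analysis was possible because the groups compared share fewer than 2 numbers. With each library left out, the number of genes called ran from 4362 to 11670, those higher in Mlh3 from 505 to 4643, those higher in Cul4a from 3814 to 7027 and those with a log2 fold change of at least 1 from 4361 to 8910. The lowest counts came without Cul4a_1 (4630) and without Cul4a_2 (4362), where the remaining Cul4a library is assumed to vary like the Mlh3 libraries and fewer samples enter the fit. The alternatives other than leaving out a library gave 7173 to 11437 called genes, and library totals moved genes higher in Mlh3 to 6334. The one fit of all mechanical HiSeq libraries put 15.9% of the genes within 10 Mb of Mlh3 and 11.7% of those near Cul4a on the Mlh3 side, beside 3990 of the 22983 genes of that fit.

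Of 1899 values of the 119 named genes under alternatives, 1723 kept their direction and side of the threshold, 131 lost it, 29 gained it and 16 changed sign, in 5 genes that were not called. Mlh3 was 0.013 with library totals. Itm2b was 0.63 with library totals, 0.095 after thinning, 0.016 with filterByExpr, 0.14 with all 6 Mlh3 libraries and -0.27 to 0.088 with a library left out. App was 0.59 with library totals, 0.0022 after thinning and -0.81 (without Mlh3_3) to 0.15 with a library left out. Lamp1 was 0.38 with library totals, and C3 was -0.43 in barcodes of at most 10% mitochondrial UMIs. The cause was not tested. All 119 alternatives of the shares and detected genes kept their direction, though none could pass a threshold. Genes detected (Mlh3 minus Cul4a) differed by -1286 at the equal depth of the main value and by -4371 without thinning. With all 6 Mlh3 libraries the difference at equal depth was -363. Mlh3_2 held only 450745 UMIs, so equal depth was lower there. The change from -1286 to -363 therefore does not show the effect of the added libraries alone. Depth limits genes of few UMIs most.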

Other observations

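Across autosomes, the share of genes called higher in Cul4a ran from 23.9% on chromosome 19 to 36.0% on chromosome 14, beside 27.7% of all autosomal genes. On chromosome 14, 795 genes were tested, of which 110 were higher in Mlh3 and 286 higher in Cul4a, and the median log2 fold change was -0.47 against -0.17 for the autosomes. With library totals, 219 genes of chromosome 14 (27.5%) were called in each direction, beside 29.8% of autosomal genes higher in Mlh3 and 18.8% higher in Cul4a. No test was made across chromosomes.

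Immediate early and heat shock genes, which respond to tissue dissociation, gave 1 of 15 higher in Mlh3 and 2 higher in Cul4a, beside 14.2% and 29.0% of all genes tested. The counts were 4 and 1 with library totals (28.9% and 20.3% of all genes). They were 2 and 5 in barcodes of at most 10% mitochondrial UMIs (2848 and 6907 of 21150 genes). The list took 0.270, 0.439, 0.490 and 0.390% of nuclear-encoded UMIs in Mlh3 and 0.189 and 0.184% in Cul4a, beside 0.167 to 0.210% in wild-type, and the mutants did not overlap. Jun was at 47.9, 24.2, 38.8 and 22.7 CPM in Mlh3 and 10.3 and 10.4 CPM in Cul4a (log2 fold change 1.03, adjusted p = 0.0322 in edgeR's quasi-likelihood test). Ribosomal and other genes that the study had chosen on these samples as batch components gave 4 of 17 higher in each strain, beside 14.2% of all genes for Mlh3 and 29.0% for Cul4a, or 5 higher in Mlh3 and 1 higher in Cul4a with library totals, 2 and 2 without Cul4a_1 and 2 and 1 without Cul4a_2, which is not independent evidence of a direction. Eif1, a translation initiation factor, was at 287, 382, 509.8 and 493 CPM in Mlh3 and 875 and 920.3 CPM in Cul4a. Mtif2, a mitochondrial translation initiation factor among the leading genes on the Mlh3 side, was at 163, 165, 167 and 152 CPM in Mlh3 and 28.7 and 20.7 CPM in Cul4a, beside 33.8 to 61.5 CPM in wild-type.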
